A study of Homo sapiens with 4 samples.

Results

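The replication-dependent histone genes encode the linker histone H1 and the core histones H2A, H2B, H3 and H4 that package newly made DNA. They were taken as the genes with the current symbols H1-1 to H1-6, or H2AC, H2BC, H3C or H4C followed by a number, without pseudogenes. The gene name table held 69 of them, and 33 had a row among the 57820 gene IDs of the count files: 6 of 6 H1 genes, 8 of 17 H2A genes, 10 of 18 H2B genes, 5 of 13 H3 genes and 4 of 15 H4 genes. The remaining 36 were not paired with a row by their current ID and were not analysed here, except H3C6, which was read through a splice junction.

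RNA was sequenced from HEK293T cells, a human embryonic kidney line that carries the SV40 large T antigen, after transfection with an expression vector for SF3B1. SF3B1 is the largest subunit of the SF3b complex of the U2 snRNP, which recognises the intron branch point during splicing. The 4 libraries were SF3B1-R625H (1000 ng of plasmid), SF3B1-K666T (1000 ng), SF3B1-K700E (2000 ng) and wild-type SF3B1 (WT, plasmid amount not given in the sources used here). All were made with a stranded kit that selects RNA by its poly(A) tail, and all cells carried their own SF3B1 beside the vector. The series title asks whether the effect of a substitution depends on its position and its charge. With 1 library for each vector no difference below has a replicate check, no test between conditions was possible, and each 95% interval covers counting error only. Plasmid amount and the K700E substitution cannot be told apart.

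Reads assigned to genes numbered between 82254731 and 90939945 per library. Unmapped read pairs made up 16.46% in R625H, 17.31% in K666T, 15.17% in K700E and 8.84% in WT. SF3B1 had 517, 521, 512 and 506 CPM (counts scaled to the gene reads of each library) in R625H, K666T, K700E and WT, and whether vector reads align to the gene was not tested.

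Replication-dependent histone genes are transcribed mainly in S phase, from clusters in which H2A and H2B genes often start side by side on opposite strands. Most have no intron, and their mRNAs end after a short 3′ stem-loop in place of a poly(A) tail. SLBP binds the stem-loop, and the U7 snRNP with its proteins LSM10 and LSM11 directs the cut that follows it. Some of these genes also give polyadenylated or spliced transcripts that run past the stem-loop, and a poly(A)-selected library captures these in preference to the mature histone mRNA. The levels below are therefore those of histone RNA that entered a poly(A)-selected library. As background, U2 snRNP components have been reported on intronless histone pre-mRNAs, where they aid 3′ end formation.

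The stem-loop is shown because it marks where the mature mRNA ends. A search of GENCODE release 29 transcripts (GRCh38) for GGNNNNTTTNNNNNCC on the transcript strand, with the 6 outer bases on each side able to pair around a loop of 4, found it in 28 of 65 histone genes with a transcript there and in 0.45% of all 58676 genes. Many release 29 models of histone genes end with the coding sequence, so no match says only that the letters are not in the model. Of the 28, 15 had the letters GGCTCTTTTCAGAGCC, 4 had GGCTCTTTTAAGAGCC, 5 had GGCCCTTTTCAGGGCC, 3 had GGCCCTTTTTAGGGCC and 1, H2AC11, had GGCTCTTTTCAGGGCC. In the following sequences, 5′ to 3′ with T for U, capitals mark the match.
H2AC25: ataaaGGCTCTTTTCAGAGCCacctactat
H2BC26: ccaaaGGCTCTTTTCAGAGCCacccacacg
H2BC5: ccaaaGGCTCTTTTAAGAGCCacgcatgtt
H2AC11: ccaacGGCTCTTTTCAGGGCCacccacgtc
H4C8: ccaaaGGCCCTTTTCAGGGCCgcccacttt
Their positions on GRCh38 are H2AC25 chr1:228457360-228457389 (minus strand), H2BC26 chr1:228458533-228458562 (plus strand), H2BC5 chr6:26158582-26158611 (plus strand), H2AC11 chr6:27133510-27133539 (plus strand) and H4C8 chr6:26285122-26285151 (minus strand).

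Promoters are shown for H2BC12 and H1-2, which had the most reads, and for H2AC25, which had fewer reads per library size in K700E than in WT. The RefSeq windows (GRCh38.p14) run from 250 bases before to 50 bases after the gene start, and 64 of the 69 histone genes had one. Capitals mark CCAAT on either strand, TATAAA on the gene's strand, the octamer ATTTGCAT on either strand, and AAACACA on the gene's strand.
H2BC12: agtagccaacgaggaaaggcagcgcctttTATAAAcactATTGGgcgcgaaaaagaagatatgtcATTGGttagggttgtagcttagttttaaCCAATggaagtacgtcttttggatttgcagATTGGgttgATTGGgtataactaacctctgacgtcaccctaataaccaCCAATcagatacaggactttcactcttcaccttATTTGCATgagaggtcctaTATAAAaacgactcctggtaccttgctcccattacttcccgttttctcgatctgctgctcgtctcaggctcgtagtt
H1-2: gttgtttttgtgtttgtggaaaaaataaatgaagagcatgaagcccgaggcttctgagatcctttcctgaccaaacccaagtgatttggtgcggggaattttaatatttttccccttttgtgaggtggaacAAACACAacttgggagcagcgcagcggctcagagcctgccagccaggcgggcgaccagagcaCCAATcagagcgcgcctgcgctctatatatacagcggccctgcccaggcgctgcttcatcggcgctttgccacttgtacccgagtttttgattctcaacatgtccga
H2AC25: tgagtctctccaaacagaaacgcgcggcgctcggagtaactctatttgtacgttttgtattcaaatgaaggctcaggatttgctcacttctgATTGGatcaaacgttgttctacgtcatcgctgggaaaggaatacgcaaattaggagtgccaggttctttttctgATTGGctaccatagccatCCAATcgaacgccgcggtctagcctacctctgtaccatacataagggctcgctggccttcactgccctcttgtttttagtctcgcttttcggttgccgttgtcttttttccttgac
The windows are chr6:27146809-27147108 for H2BC12, chr6:26056421-26056720 for H1-2 and chr1:228457824-228458123 for H2AC25, all on the minus strand. CCAAT was present in 84.4% of the 64 histone windows, against 34.6% of all 35116 windows, and TATAAA in 57.8%, against 7.33%. By class, CCAAT was in 100% of H1, H2A, H2B and H3 windows but in 23.1% of the 13 H4 windows, below the share of all windows. The octamer was in 77.8% of H2B windows and 68.8% of H2A windows, against 1.77% of all. AAACACA was in 83.3% of H1 windows, against 2.83% of all. A match is a description of the letters and not a site of binding.

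The summed histone reads were higher in each of the 3 mutant libraries than in WT. The 33 genes held 19374 reads in R625H, 24905 in K666T and 25899 in K700E, against 19334 in WT. Scaled to the gene reads of each library these are 236 CPM in R625H (95% Poisson interval 232 to 239), 288 in the K666T library (285 to 292) and 312 in the K700E library (308 to 316), against 213 CPM in WT (210 to 216). None of the 4 intervals overlapped another. R625H stood at 1.11 times the WT rate (1.09 to 1.13), K666T at 1.36 times (1.33 to 1.38) and K700E at 1.47 times (1.44 to 1.49), or 0.15, 0.44 and 0.55 on the log2 scale. The median gene of the 15950 at the level described below had a log2 ratio of -0.02, 0.00 and 0.00. H2BC12, a core histone H2B gene, held 44.8% of the histone reads in R625H, 43.0% in K666T and 39.8% in K700E, against 45.8% in WT. Without it, the summed log2 ratio was 0.18 in R625H, 0.51 in K666T and 0.70 in K700E.

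Each of the 5 classes had a higher CPM in each mutant library than in WT. H1, the linker histone, had 35.5, 46.3 and 52.1 CPM in R625H, K666T and K700E, against 32.1 in WT. H2A had 40.1, 48.2 and 51 CPM in the same mutants, against 36.9 in WT. H2B, which held most histone reads, had 154, 186 and 200 CPM in the mutants, against 140 in WT. The classes keep the order K700E, K666T, R625H, WT from high to low in every case, although K700E and K666T did not differ beyond counting error for H3 (ratio 1.07, 0.873 to 1.3), and the lower bound of each ratio to WT lay above 1.

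The H3 and H4 genes had few reads and the highest ratios. H3 genes held 151 reads in R625H, 200 in K666T and 205 in K700E, against 74 in WT. R625H had 2.26 times the WT rate (1.7 to 3.02), K666T had 2.84 times (2.17 to 3.77) and K700E had 3.03 times (2.32 to 4.01). H4 genes held 351, 446 and 493 reads in R625H, K666T and K700E, against 277 in WT, which is 1.4, 1.69 and 1.95 times the WT rate. The H3 intervals lay above the whole interval of the H1, H2A and H2B classes in each mutant. Since 8 H3 and 11 H4 genes have no row, these sums cover a minority of their classes.

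**Figure D1:**
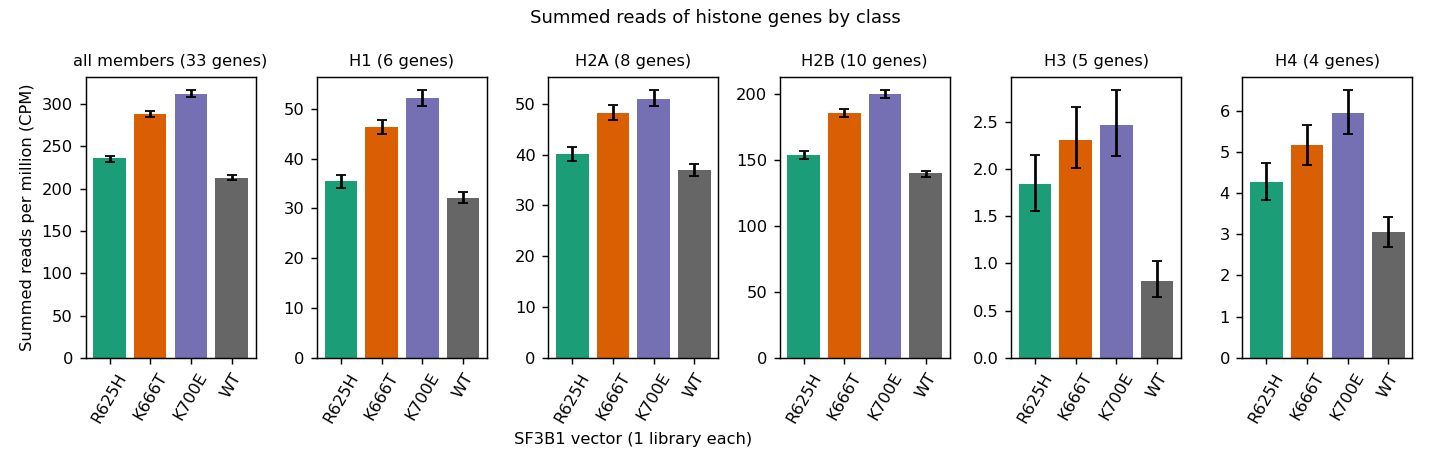
Summed CPM (y axis, each panel its own scale from 0) for all 33 histone genes and for each class, by SF3B1 vector (x axis, 1 library each), with 95% Poisson intervals as bars. In every panel the WT bar is the lowest and the K700E bar the highest, from 312 CPM in K700E to 213 in WT over all members, and from 2.47 in K700E to 0.814 in WT for H3.

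Of the 33 genes, 20 had a mean of at least 0.5 CPM over the 4 libraries, a level that 15950 genes of the files met: 2 H1, 5 H2A, 9 H2B, 2 H3 and 2 H4 genes. Of these, H2AC20, H2BC13, H3C4 and H3C12 were under 0.5 CPM in WT, so they met the level through the mutant libraries and their higher values there are in part set by it. Per gene, log2 ratios were computed with a prior count of 10 added in proportion to library size, which draws genes with few reads toward 0, and ratios with an interval were computed without it. At least 2-fold higher were 2 of the 20 in R625H, where 0.652% of all genes at the level were, 4 in K666T, where 0.727% were, and 8 in K700E, where 1.32% were. The 2 in R625H are H3C4 and H3C12, both among those that met the level through the mutant libraries, so nothing is read from that count. With a mean of at least 1 CPM the counts were 0, 2 and 5 in R625H, K666T and K700E, and with a prior count of 50 they were 0, 0 and 5. At least 2-fold lower were 0 of the 20 in each mutant, where 0.0313% of all genes were in R625H, 0.0125% in K666T and 0.458% in K700E. At least 1.5-fold higher were 3 in R625H (1.91% of all genes), 8 in K666T (2.5%) and 17 in K700E (4.34%), and 0 were 1.5-fold lower in any mutant (0.633, 0.483 and 2.36% of all genes). The 3 in R625H are H2AC20, H3C4 and H3C12, under 0.5 CPM in WT, and with a mean of at least 1 CPM that count was 0. The median log2 ratio of the 20 was 0.24 in R625H, 0.51 in K666T and 0.73 in K700E. The log2 ratio was above 0 in 19, 20 and 19 of the 20, beside 45.9, 50 and 50.5% of all genes. The interval lay above 0 in 12, 16 and 18 of the 20. The share of all genes with such an interval was not computed, so these interval counts have no background. The members just above the level were H2AC20 (0.585 CPM on average) and H2BC13 (0.749), and the one just below was H1-3 (0.382).

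**Figure D2:**
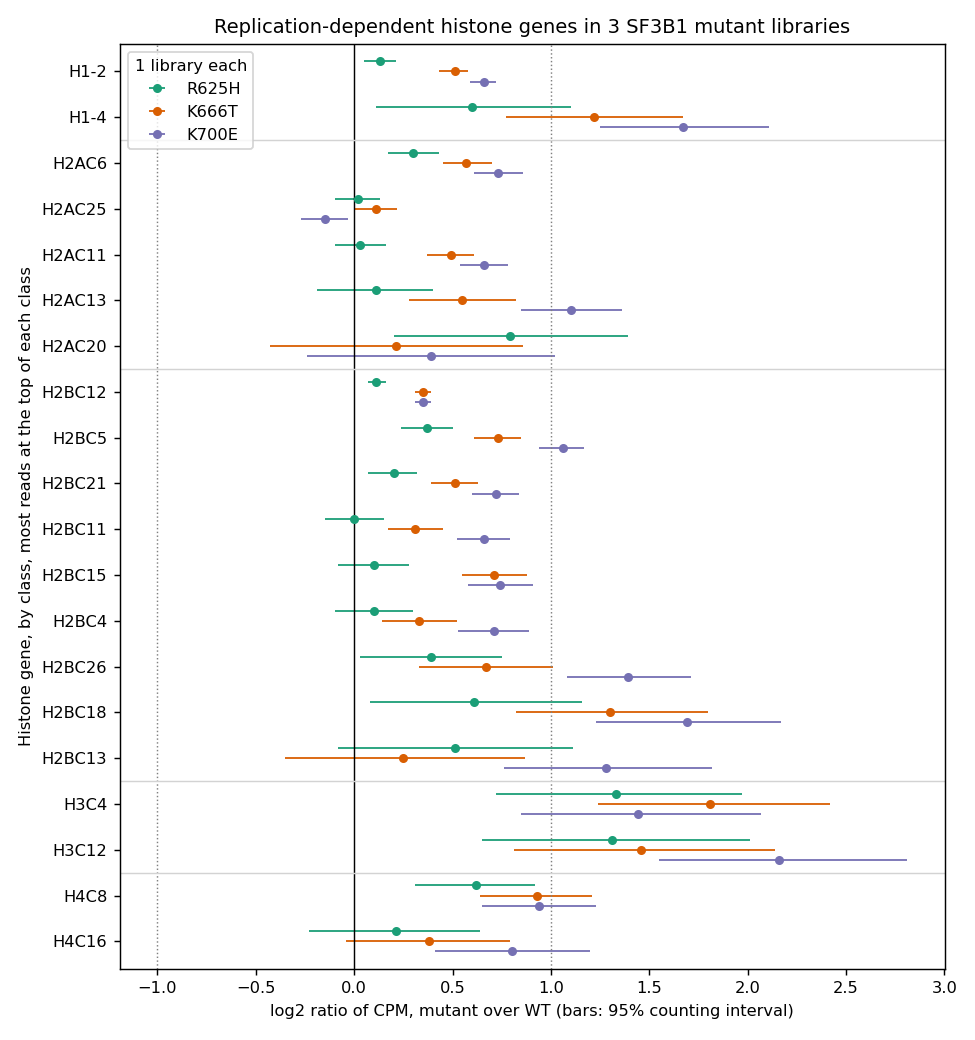
log2 ratio of CPM over WT without a prior count (x axis) for the 20 histone genes at the level (y axis, by class), 1 point per mutant library with its 95% counting interval; dotted lines mark 2-fold. All K700E points but that of H2AC25, at -0.15, lie to the right of 0, and the widest intervals belong to the genes with the fewest reads, such as H3C12 and H3C4.

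Among the H1 genes, H1-2, the linker histone with most reads in these cells, had 2801 reads in R625H, 3816 in K666T and 4069 in K700E, against 2830 in WT. It was 1.09-fold (1.04 to 1.15), 1.42-fold (1.35 to 1.49) and 1.57-fold (1.5 to 1.65) the WT rate. H1-4, another linker histone, had 85, 137 and 180 reads in R625H, K666T and K700E, against 62 in WT. H1-4 thus had a small count but a ratio of 3.18 in K700E (2.37 to 4.32), about that of the H3 class. H1-3, below the level, had 24, 36 and 49 reads in the mutants in the same order, against 21 in WT. H1-6, known as a testis linker histone, had 5, 8 and 23 reads, against 5 in WT. H1-1 had at most 7 reads and H1-5 at most 1 read in any library.

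Among the H2A genes, H2AC6 had 1025, 1304 and 1402 reads in R625H, K666T and K700E, against 923 in WT. H2AC11 had 876, 1265 and 1370 reads in R625H, K666T and K700E, against 949 in WT. H2AC11 in R625H did not differ from WT beyond counting error (ratio 1.02, 0.93 to 1.12), while H2AC6 did (1.23, 1.12 to 1.34). H2AC13 had 191, 272 and 384 reads, against 196 in WT, and 57.7% of its 100-nt transcript windows are shared with another gene, so its reads may be split among copies. H2AC20 had 64, 45 and 49 reads in R625H, K666T and K700E, against 41 in WT, and was the 1 member at the level with its highest value in R625H. H2AC21 had between 11 and 15 reads per library, and H2AC1 and H2AC7 had 0 in all 4, where a count of 0 allows up to 0.0365 CPM in R625H, 0.0347 in K666T, 0.0361 in K700E and 0.033 in WT.

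H2AC25, an H2A gene in the small chromosome 1 cluster, was the member that stood apart. It had 1131 reads in R625H, 1268 in K666T and 1016 in K700E, against 1237 in WT. The rate in R625H was 1.01 times that in WT (0.932 to 1.1), the rate in K666T 1.08 times (0.997 to 1.17) and the rate in K700E 0.9 times (0.827 to 0.978), so K700E was its lowest library. H2BC26, an H2B gene, starts 230 bp away on the opposite strand, and 271 bases of the 300-base promoter window printed for H2AC25 also belong to the window of H2BC26. H2BC26 had 143 reads in R625H, 183 in K666T and 290 in K700E, against 121 in WT, so K700E was its highest library. For every 100 reads of H2AC25 there were 12.6 of H2BC26 in R625H, 14.4 in K666T and 28.5 in K700E, against 9.78 in WT, and the log2 change of that quotient in K700E was 1.54 (1.21 to 1.89). Without H2AC25, the H2A class had a log2 ratio of 0.18 in R625H, 0.52 in K666T and 0.73 in K700E, against 0.12, 0.39 and 0.47 with it. This pair was picked after its values were seen.

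The other 4 pairs of H2A and H2B genes that start within 500 bp of each other, with both genes at the level, had smaller or less certain changes of this quotient. For H2BC11 and H2AC11, H2BC11 had 80.5, 72.8 and 82 reads per 100 of H2AC11 in R625H, K666T and K700E, against 82.3 in WT. For H2BC4 and H2AC6 the quotient was 39.6, 38.3 and 44.6 per 100 in the mutants, against 45.3 in WT. The pairs with fewer reads were not resolved: H2BC21 with H2AC20 had a log2 change of -0.59 in R625H (-1.21 to 0.01), and H2BC13 with H2AC13 one of 0.40 there (-0.26 to 1.07). Of the 15 quotients of the 5 pairs, 3 had an interval of the change that left out 0: H2BC26 with H2AC25 in K666T (log2 0.56) and in K700E, and H2BC4 with H2AC6 in K666T (-0.24, -0.47 to -0.01).

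**Figure D3:**
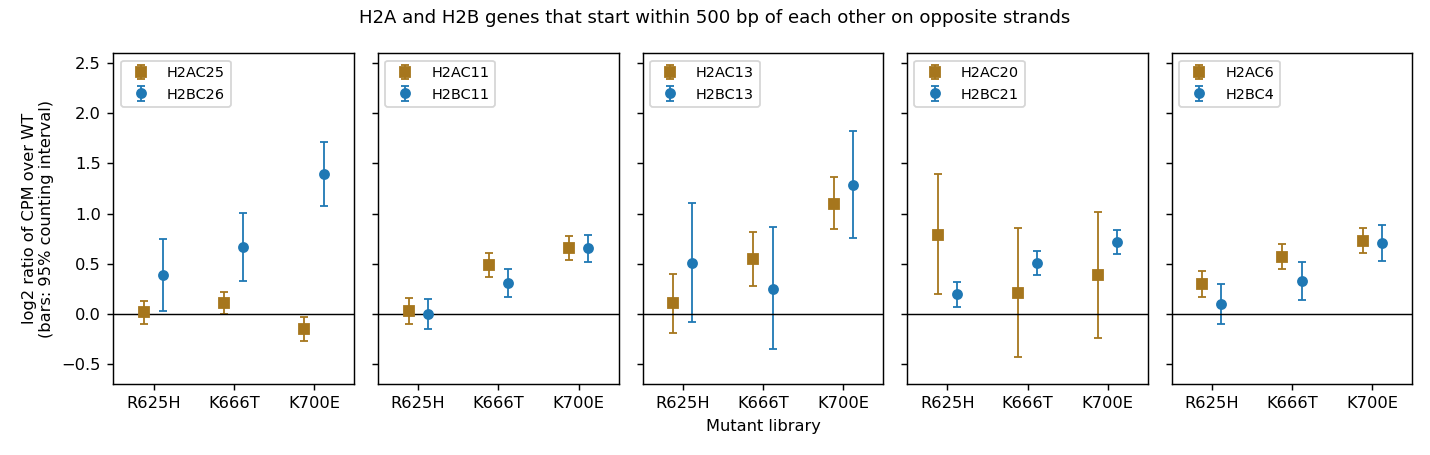
log2 ratio of CPM over WT (y axis) in each mutant library (x axis) for 5 pairs of H2A (squares) and H2B (circles) genes with starts within 500 bp, with 95% counting intervals. H2AC25 lies at -0.15 and H2BC26 at 1.39 in K700E, while H2AC11 and H2BC11 both lie at 0.66 there.

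Among the H2B genes, H2BC12 had 8671 reads in R625H, 10718 in K666T and 10317 in K700E, against 8861 in WT. Its ratio of 1.28 in K700E (1.24 to 1.31) was the lowest of the 9 H2B genes at the level there, and K700E over K666T was 1 (0.975 to 1.03). Of its 100-nt transcript windows 28.4% are shared with another gene. H2BC5, which also gives a spliced polyadenylated transcript, had 1078, 1456 and 1749 reads in R625H, K666T and K700E, against 922 in WT, a ratio of 2.08 in K700E (1.92 to 2.25). H2BC5 was the member with over 1000 reads per mutant library that passed 2-fold, and it did so in K700E alone. H2BC21 had 1022, 1335 and 1485 reads in the mutants, against 987 in WT. H2BC11 had 705, 921 and 1123 reads, against 781 in WT, with a ratio of 0.998 in R625H (0.9 to 1.11). H2BC15, whose span overlaps H2AC16 on the same strand, had 502, 809 and 794 reads, against 519 in WT, and H2BC4 had 4.94, 5.79 and 7.53 CPM, against 4.6 CPM in WT. H2BC18 had 72, 122 and 153 reads in R625H, K666T and K700E, against 52 in WT, and its gene span overlaps another gene on the same strand. H2BC13 had 58, 51 and 100 reads in the same mutants, against 45 in WT. H2BC1, known from testis, had 0 reads in all 4 libraries.

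Among the H3 genes, H3C4 had 75 reads in R625H, 110 in K666T and 82 in K700E, against 33 in WT. H3C12 had 63, 73 and 114 reads in R625H, K666T and K700E, against 28 in WT. All 3 mutant libraries lay above WT for both genes, and the lowest of the 6 ratios was 2.49, for H3C12 in R625H (1.57 to 4.03). Both genes overlap another annotated gene on the same strand, so some reads may belong to it. H3C13 had between 9 and 16 reads per library, and H3C14 and H3C15, which are near-identical copies, had at most 3 reads in any library. Among the H4 genes, H4C8 had 219, 285 and 277 reads in R625H, K666T and K700E, against 158 in WT. H4C16, which lies apart from the main clusters on chromosome 12, had 94, 111 and 143 reads, against 90 in WT. H4C11 had 23, 35 and 39 reads and H4C3 had 15, 15 and 34 reads in the mutants, against 14 and 15 in WT. Together the 13 genes below the level held 93, 124 and 177 reads in R625H, K666T and K700E, against 81 in WT, a log2 ratio of 1.26 in K700E (0.87 to 1.66). Reads on the strand opposite to the 33 genes were few, with 151 in R625H, 158 in K666T and 247 in K700E, against 159 in WT.

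R625H and K666T were transfected with equal amounts of plasmid and could be set against each other directly. Summed histone CPM was 1.22-fold higher in K666T than in R625H (1.2 to 1.25). The median log2 difference of the 20 members, K666T over R625H, was 0.30, beside 0.02 for all genes. K666T was the higher one for 18 of the 20, with the interval above 0 for 14 and below 0 for 1, H2AC20 (45 reads in K666T, 64 in R625H). The H2BC15 ratio was 1.53 (1.37 to 1.72), and that of H2AC25 was 1.07 (0.984 to 1.16), which does not separate the mutants. K700E, with the larger amount of plasmid, was 1.32-fold above R625H (1.3 to 1.35) and 1.08-fold above K666T (1.06 to 1.1) in summed reads, with median log2 differences of 0.61 and 0.26. The order K700E, K666T, R625H, WT from high to low held for 15 of the 20 members. Every step of that order was beyond counting error for 6 of these 15: H1-2, H1-4, H2AC6, H2BC5, H2BC18 and H2BC21. The shares of all genes with this order, with K666T above R625H or with such intervals were not computed. Whether the order is particular to histone genes was therefore not tested.

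Spliced reads come from transcripts other than the usual single-exon histone mRNA. Introns of 13 histone genes in release 29 were searched for among the deposited junctions by exact length, strand and spacing, and 15 junctions of 9 genes were matched. On hg19, the build of the files, the intron of H2BC5 spans chr6:26158788-26171202. Its junction had 189 reads in R625H, 228 in K666T and 252 in K700E, against 146 in WT. That of H3C6, an H3 gene with no paired gene row, had 102, 113 and 182 reads, against 86 in WT. Scaled to all junction reads of each library, its log2 ratio was 1.10 in K700E (0.72 to 1.49). H3C12 had 3, 7 and 17 junction reads in the mutants, against 2 in WT.

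Over the 8 genes with both measures, junction reads numbered 565 in R625H, 710 in K666T and 747 in K700E, against 566 in WT. Their log2 ratio to WT, scaled to all junction reads of each library, was 0.12, 0.40 and 0.42. That of the gene reads of the same genes, scaled to all gene reads, was 0.24, 0.58 and 0.83. The scalings differ, so these ratios are not set against each other, and the following quotient uses neither. There were 13.8, 13 and 12 junction reads per 100 gene reads in R625H, K666T and K700E, against 14.7 in WT. The log2 change of this quotient was -0.09 for R625H (interval -0.27 to 0.08), -0.18 for K666T (interval -0.34 to -0.02) and -0.30 for K700E (interval -0.46 to -0.14). The gene reads were thus more above WT than the spliced reads, with the interval leaving out 0 in K666T and K700E. H2BC11 carried much of this: without it the change was 0.00, -0.08 and -0.18, and the interval in K700E (-0.36 to 0.00) reached 0. All junction reads numbered 66015665, 68666760 and 71122502 in R625H, K666T and K700E, against 72034388 in WT. All gene reads numbered 82254731, 86394759 and 83025588 in the same mutants, against 90939945 in WT. The quotients were not adjusted for these totals, whose proportion differs between libraries.

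H2BC11 had 106 reads across its long introns in R625H, 129 in K666T and 138 in K700E, against 152 in WT, which is 15, 14 and 12.3 per 100 gene reads in the mutants, against 19.5 in WT. Between the same outer ends lies an internal exon of 138 bases (hg19 chr6:27095043-27095180), which 2 further junctions enter. Reads into this exon numbered 89, 98 and 134 in R625H, K666T and K700E, against 93 in WT. Of the reads from these upstream splice sites, 45.6% (Wilson interval 38.8 to 52.6), 43.2% (36.9 to 49.7) and 49.3% (43.4 to 55.2) entered the exon in the mutants, against 38% (32.1 to 44.2) in WT. The K700E and WT intervals overlapped between 43.4 and 44.2%, and the exon was chosen after its values were seen. H2BC4 had 18.2, 21 and 15 junction reads per 100 gene reads in R625H, K666T and K700E, against 22 in WT, and H2BC5 had 17.5, 15.7 and 14.4, against 15.8 in WT.

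**Figure D4:**
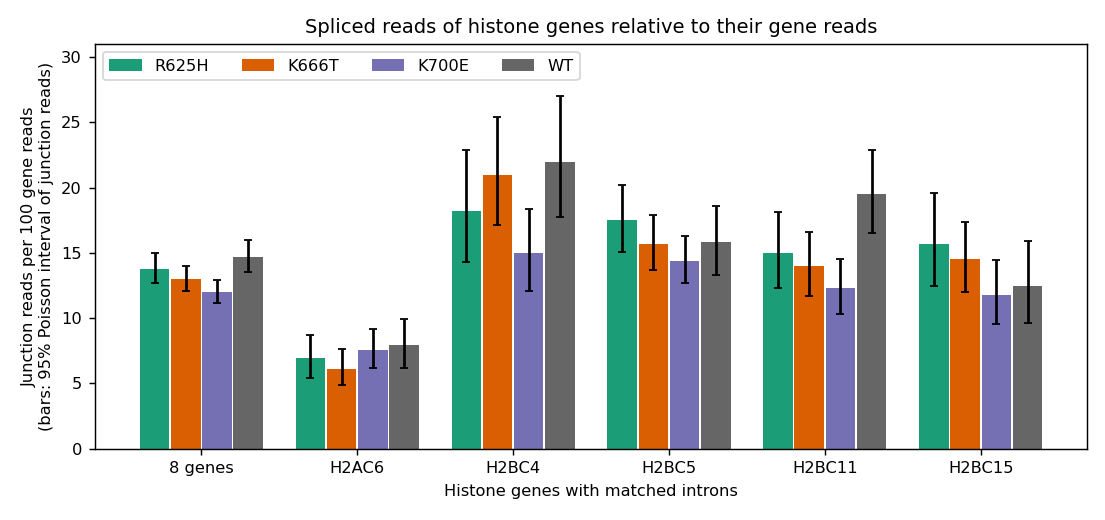
Junction reads per 100 gene reads (y axis) for the 8 histone genes with both measures together and for 5 of them (x axis), by library, with 95% Poisson intervals of the junction reads. The mutant bars of H2BC11, from 12.3 to 15, lie below that of WT at 19.5, while those of H2BC5, from 14.4 to 17.5, lie on both sides of WT at 15.8.

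In release 29, 13 of the 20 genes at the level have an intron or a transcript that runs at least 100 nt past the stem-loop, against 2 of the 13 genes below it. The exceptions among the 20 are H1-2, H1-4, H2AC13, H2AC20, H2BC12, H2BC13 and H3C4. The annotation of the files is another one, so levels were not compared per length between genes.

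Genes that act on histone mRNA come next. Of 24 genes of histone mRNA 3′ processing at the level, 0 were 2-fold away from WT in any mutant, a count that the small shares over all genes given above do not set apart. Their median log2 ratio was 0.03 in R625H, 0.02 in K666T and 0.08 in K700E. SLBP had 119, 115 and 103 CPM in R625H, K666T and K700E, against 119 in WT, and the K700E log2 ratio was -0.22 (-0.26 to -0.18). LSM10 had log2 ratios of -0.09, -0.07 and -0.15, and LSM11 of -0.10, -0.11 and -0.08. CASP8AP2, which encodes FLASH and joins the cleavage complex, had log2 ratios of 0.14, 0.13 and 0.23. ZNF473, which encodes a zinc finger protein that associates with the U7 snRNP, was the highest of the list in each mutant, with 43.5, 46.9 and 50.5 CPM in R625H, K666T and K700E, against 32.8 in WT (log2 0.41, 0.52 and 0.62). The lowest were CPSF1 at -0.13 in R625H and in K666T, and SNRPB, a Sm protein, at -0.34 in K700E. ERI1, an exonuclease that binds the stem-loop, had log2 ratios of 0.08, 0.01 and 0.00.

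Among 21 genes of histone transcription and histone mRNA decay the medians were 0.02, 0.03 and 0.05 in R625H, K666T and K700E. NPAT, the coactivator at histone gene clusters, had 38, 38.3 and 37.7 CPM in the mutants, against 36.3 in WT. The extremes were ATF1 at 0.31 in R625H and 0.35 in K666T, XRN1, a cytoplasmic exonuclease, at 0.42 in K700E, and MIF4GD, an SLBP partner in histone mRNA translation, at -0.30, -0.35 and -0.59. Of 23 histone chaperones and importers the medians were -0.01, 0.02 and 0.03, and that in R625H was 0.01 with TMM or median of ratios scaling. Their lowest member in K700E was the importin IPO4 at -0.87, with 33 reads there, against 75 in WT, and NASP was lowest in R625H at -0.22. The highest were HJURP at 0.20 in R625H and 0.27 in K666T and SUPT6H at 0.35 in K700E.

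Histone genes that are not tied to replication did not share the pattern as a list. Their median log2 ratio was -0.09 in R625H, -0.09 in K666T and -0.19 in K700E over 11 genes at the level, of which 2 were above 0 in each mutant. H2AX, which is known for both a stem-loop and a polyadenylated mRNA, had 91.8, 88.8 and 66.5 CPM in R625H, K666T and K700E, against 103 in WT, and a log2 ratio of -0.62 in K700E. H2AJ was the lowest in R625H at -0.21 and MACROH2A2 in K666T at -0.25.

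The share of cells in S phase and the histone RNA per cell cannot be told apart in bulk libraries. The 39 S phase genes at the level had median log2 ratios of 0.00, 0.02 and 0.04 in R625H, K666T and K700E. Of the 39, 0 were 1.5-fold away from WT in any mutant. Over all genes, 1.91, 2.5 and 4.34% were at least 1.5-fold higher and 0.633, 0.483 and 2.36% were lower. Shares this small do not set a count of 0 apart. GINS3, a replication factor, was the highest in each mutant at 0.27, 0.29 and 0.41, and the lowest were LIG1 at -0.17 in R625H, POLD1 at -0.15 in K666T and DSCC1 at -0.28 in K700E. The 30 genes of G2 and M phase had medians of 0.02, 0.02 and -0.06. Their highest were TTK at 0.20 in R625H and CKAP2 at 0.24 in K666T and 0.21 in K700E, and their lowest were KIF20A at -0.45 and -0.31 in R625H and K666T and UBE2C at -0.30 in K700E.

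As a sum, RNAs that have no poly(A) tail, such as small nuclear RNAs, were also higher in each mutant library than in WT. The 26 with a row summed to 719 reads in R625H, 684 in K666T and 817 in K700E, against 395 in WT, a log2 ratio of 1.01 (0.83 to 1.19), 0.87 (0.69 to 1.05) and 1.18 (1 to 1.36). At the level, 5 of them had medians of 0.70, 0.57 and 0.70, and 3 of the 5, RNU5A-1, RNU4-2 and RNU4ATAC, were under 0.5 CPM in WT and met the level through the mutant libraries. RNU5A-1, a U5 spliceosomal RNA, had 128, 105 and 138 reads in R625H, K666T and K700E, against 36 in WT, and RNU4-2, a U4 spliceosomal RNA, had 63, 54 and 83 reads, against 16 in WT. TERC, below the level, was lower in each mutant library, within counting error, with 25, 20 and 26 reads, against 34 in WT. The lowest of the 5 were RNU4ATAC in R625H at 0.56 and SNORA73B in K666T and K700E at 0.41 and 0.52, and RNU2-2P, RNU7-1 and RNY4 were at 0 in all 4 libraries. Their summed CPM was 7.92 in K666T and 8.74 in R625H, with overlapping intervals of the ratio to WT, while that of the histone genes was 288 in K666T and 236 in R625H. Their part in the histone result was not tested.

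Interferon response genes were higher in each mutant library too. Over 22 genes at the level their median log2 ratio was 2.47 in R625H, 2.07 in K666T and 4.42 in K700E, with 19, 17 and 22 of them at least 2-fold higher, where 0.652, 0.727 and 1.32% of all genes were. OAS1, OAS2, CXCL10 and IFNB1 met the level through the mutant libraries, as they were under 0.5 CPM in WT. RSAD2, an antiviral enzyme, was highest in R625H at 3.67 and in K700E at 7.14, OAS1 in K666T at 3.08, and USP18 was the lowest in each at 0.44, 0.28 and 1.54. The summed reads of the 23 genes with a row were 906 CPM in R625H, 677 in K666T and 4060 in K700E, against 236 in WT, so R625H lay above K666T here, and the part of this response in the histone result was not tested.

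**Figure D5:**
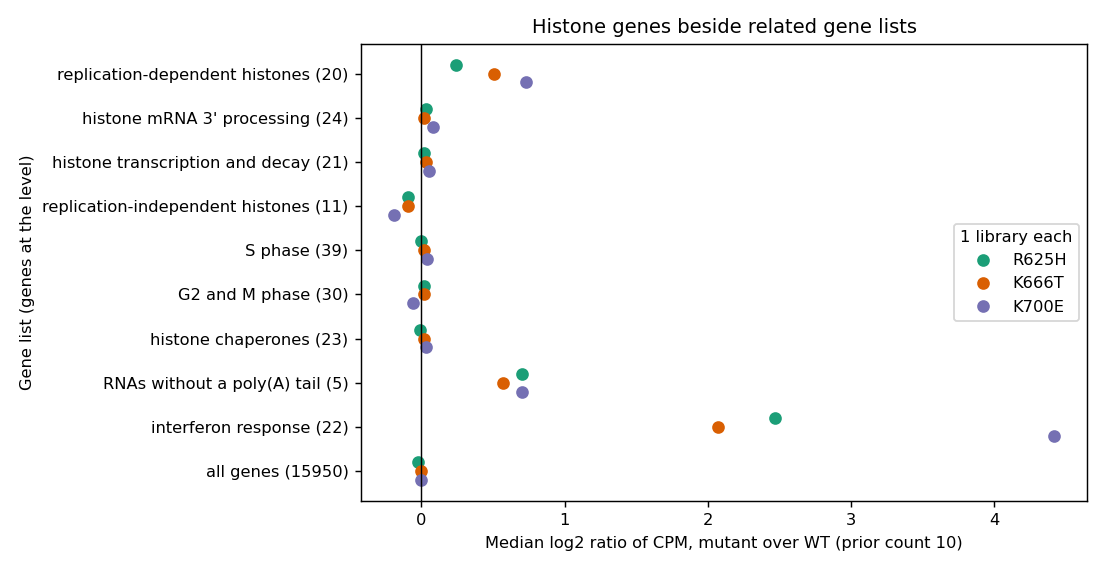
Median log2 ratio of CPM over WT with a prior count of 10 (x axis) for the replication-dependent histone genes, the related gene lists and all genes at the level (y axis, number of genes in parentheses), 1 point per mutant library. The histone genes lie at 0.24, 0.51 and 0.73 in R625H, K666T and K700E, the interferon list furthest to the right, and the processing, S phase, G2 and M phase and chaperone lists within 0.08 of 0.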

How the data were processed

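Raw gene counts and raw counts of reads over splice junctions are what the authors deposited for the 4 libraries. The submitters' processing notes name STAR 2.5.3a, HTSeq and the build hg19 (GRCh37), with no annotation release given in the sources used here. Gene counts in column 4, on the strand opposite to read 1, were used because the labels' protocols name a stranded library kit. Between 5.72 and 5.97% of stranded gene reads lay on the other strand. Rows that name no gene stayed out of library sizes. Beside unmapped pairs, these were 4.01 to 4.40% multimapping, 5.01 to 5.87% outside features and 3.04 to 3.43% ambiguous. Near-identical histone genes lose reads that map to several places.

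A name table gave a symbol or other entry to 51996 of the 57820 gene IDs. Ratios of CPM (counts scaled to library size) have exact conditional binomial 95% intervals and summed reads have exact Poisson intervals. Reads of 1 gene are not independent molecules, so these cover counting error only. Values were computed with Python 3.11.15, pandas 2.3.3 and SciPy 1.17.1, and alternative scalings with edgeR 4.0.16 and DESeq2 1.42.0 in R 4.3.3. The fold and interval code was tested on simulated data. Introns were matched from GENCODE 29 (GRCh38) by length at 1 shared shift per gene or neighbourhood. For 4 genes, 2 or more introns matched at 1 shift. Of 198 searches on a wrong chromosome, run for genes with several introns, 1 matched 2 introns. The other 5 genes, among them H2BC5 and H3C6, were matched by 1 intron at a shift found for another member on the same chromosome. False matches by 1 intron were not checked.

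The members and the lists were chosen with earlier results of these data known. Named are the 2 members with most reads per class, the 10 with most in all, the 3 highest and 3 lowest ratios per mutant, each member past 2-fold and those at 0; of other lists, SLBP, LSM10, LSM11, NPAT, CASP8AP2, ZNF473, ERI1 and the highest and lowest per mutant. The remaining members are given by their reads so that each is accounted for. Some results of the related lists are not reported here.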

Additional observations from a re-analysis of the deposited data

How the results depend on the processing

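TMM and median of ratios scaling left every sum within its counting interval and every count within 1.5 times of the value given. Each median stayed within an interval from the ranked values of its genes, which is a spread among genes and not counting error. The median of all genes shifted by at most 0.02 on the log2 scale. Unstranded counts, no level filter and leaving out near-identical members kept to the same bounds for sums, counts and medians, for the results run under each. With a prior count of 50, the members at least 2-fold higher numbered 0 in R625H, 0 in K666T and 5 in K700E, and with a mean of at least 1 CPM they numbered 0, 2 and 5. With a prior count of 1, 6 members were at least 1.5-fold higher in R625H, and with a mean of at least 1 CPM 0 were. Both settings act by construction on the members with few reads, among them both H3 genes. Without the most abundant member, H2BC12, the summed log2 ratio was 0.51 in K666T and 0.70 in K700E, and that of the H2B class was 0.20, 0.56 and 0.85 in R625H, K666T and K700E. The log2 difference between mutants was then 0.34 for K666T over R625H, 0.53 for K700E over R625H and 0.19 for K700E over K666T. Chosen after seeing the data, leaving out H2AC25 gave 0.52 in K666T and 0.73 in K700E for the H2A class, and leaving out H2BC11 is described with the junctions. 3 values changed sign. The chaperone median in R625H, -0.01, was 0.01 with TMM and 0.01 with median of ratios scaling, within the spread among its genes. The log2 ratio of H2AC20 in K700E, 0.32, was -0.22 with unstranded counts, within its counting interval. No paired analysis was possible because each group has 1 library. Depth limits the H3 genes and the 13 genes below the level, which had at most 49 reads each.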
